A study of Mus musculus with 4 samples.

Results

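Amino acid carriers of the SLC1, SLC3, SLC6, SLC7, SLC36, SLC38 and SLC43 families were followed across the cell types of mouse kidneys. A gene was taken when its symbol consisted of one of these family prefixes (Slc1a, Slc3a, Slc6a, Slc7a, Slc36a, Slc38a or Slc43a) followed only by digits. This gave 61 of the 57132 genes in the count matrices: 7 of SLC1, 2 of SLC3, 19 of SLC6, 15 of SLC7, 4 of SLC36, 11 of SLC38 and 3 of SLC43. Genes with a letter after the number, such as the imino acid carriers Slc6a20a and Slc6a20b, fell outside the rule and were described as neighbours only. All 61 had at least 1 unique molecular identifier (UMI, 1 captured transcript), and together they held 398535 of 256403304 UMIs, or 0.155%.

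The kidneys came from 4 wild-type mice in which acute kidney injury had been induced with a contrast agent (CIAKI), each mouse being a separate biological replicate of this single group. Cells were dissociated from fresh tissue and sequenced on the 10x Genomics droplet platform. The agent, its dose, the time of collection, and the age, sex and strain of the mice are not given in the sources used here. There was no uninjured group, so every comparison below is between cell classes or cell ranges of the same injured kidneys, and none measures an effect of injury.

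After filtering, 40830 cells remained, from 7085 to 12903 per mouse, with a median of 5549, 5780 and 5655 UMIs per cell in mice 1, 2 and 3 and 2077 in mouse 4. Mouse 4 stood apart: it was the shallowest library, it gave the carriers 0.098% of its UMIs against 0.154% to 0.175% in the others, and it held 3437 of the 4827 T lymphocyte-like cells. Between 0 and 40 cell barcodes were shared by any 2 libraries. Of 43 clusters, 9 earned no name from their markers, and 4477 cells stayed unnamed, including 303 taken out of proximal tubule clusters for markers of other cells. The other clusters formed 15 classes, 12 of them with 20 or more cells in every mouse. Classes are called "-like" because they were named from marker genes, none of which is one of the 61 carriers. The marker genes of all lists were present by symbol in the count matrices, except Akr1b3 of the thin limb list, whose symbol is not among their genes. Dissociation decides how many cells of each class are seen, so levels are given per class and never as amounts in the kidney.

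Most filtered amino acids are taken back in the proximal tubule. Carriers in the brush border pull them in with sodium or protons or by exchange, and carriers on the basal side let them out to the blood. Several SLC7 carriers are light chains that reach the membrane only with an SLC3 heavy chain: Slc7a9 and Slc7a13 pair with Slc3a1 (the cystine and dibasic amino acid system of the brush border, lost in cystinuria), while Slc7a5, Slc7a6, Slc7a7, Slc7a8 and Slc7a11 pair with Slc3a2. Outside the tubule the same families supply arginine, glutamine and cystine to growing or activated cells, and taurine and betaine as osmolytes.

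Of the 61 genes, 43 had an entry in the RefSeq promoter table (build GRCm38.p6), which was searched on both strands for 4 short motifs. The amino acid response core TGATGNAA, bound by ATF4 with a C/EBP partner, was in 3.45% of all 32851 promoters and in those of Slc7a11, Slc7a7 and Slc6a21. The HNF4 element CAAAGTCCA, of a factor known from proximal tubule and liver, was in 0.384% of all promoters and only in that of Slc3a1 among the carriers. The HNF1 element GTTAATNAT (0.737% of promoters) was in none of them, and the antioxidant element TGACNNNGC (10.2% of promoters) was in a promoter of 8 carriers. The 43 genes had 64 promoters, and a gene counted when any of them matched. Counts of genes and shares of promoters are therefore not on 1 scale. Overlaps between motifs were not removed. The 250 bases upstream of the start of 3 carriers are shown because each of these genes leads or sets apart a cell class below. They run 5′ to 3′ in the direction of the gene, with the motif in capitals. Slc7a11 lies on the minus strand (chr3:50443614-50443863), Slc7a7 on the minus strand (chr14:54417945-54418194) and Slc3a1 on the plus strand (chr17:85028097-85028346).
Slc7a11: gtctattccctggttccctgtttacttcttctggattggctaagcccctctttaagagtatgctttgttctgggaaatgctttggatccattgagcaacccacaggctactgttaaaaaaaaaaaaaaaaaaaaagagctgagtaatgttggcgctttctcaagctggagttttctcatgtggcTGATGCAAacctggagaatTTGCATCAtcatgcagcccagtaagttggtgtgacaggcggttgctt
Slc7a7: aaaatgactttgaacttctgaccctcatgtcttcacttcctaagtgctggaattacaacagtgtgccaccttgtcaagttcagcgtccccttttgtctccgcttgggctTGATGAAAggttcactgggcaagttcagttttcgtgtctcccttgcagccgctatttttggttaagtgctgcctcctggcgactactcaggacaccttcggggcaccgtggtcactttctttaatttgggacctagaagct
Slc3a1: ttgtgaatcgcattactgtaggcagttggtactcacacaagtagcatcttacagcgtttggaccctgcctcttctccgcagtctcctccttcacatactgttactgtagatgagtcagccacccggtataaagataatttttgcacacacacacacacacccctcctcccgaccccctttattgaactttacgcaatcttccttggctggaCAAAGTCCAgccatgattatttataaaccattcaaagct
Counted from the transcription start, the Slc7a11 matches lie at -66 to -59 on the strand of the gene and at -47 to -40 on the opposite strand. The printed match of Slc7a7 lies at -141 to -134, and that of Slc3a1 at -39 to -31. Slc7a7 also has a match at -243 to -236 in another promoter, which is not printed. A match says only that these letters stand in this window; binding was not measured.

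Levels are CPM, the UMIs of a gene scaled to 1000000 UMIs of a class within a mouse, and are given as mean ± SD over the 4 mice. Of the 61 carriers, 37 reached a mean of 10 CPM in at least 1 class. The proximal tubule-like class (2405 cells) had the highest mean for 13 of these 37, fibroblast and mural-like cells for 4, macrophage and monocyte-like cells for 4, endothelial-like, podocyte-like and thin limb-like cells for 3 each, T lymphocyte-like and thick ascending limb-like cells for 2 each, and neutrophil-like, collecting duct-like and intercalated-like cells for 1 each. For 13 of the 37 the lowest mouse of the leading class stood above the highest mouse of every other class present in all 4 mice. These were Slc3a1, Slc6a8, Slc6a13, Slc6a15, Slc6a19 and Slc7a9 in proximal tubule, Slc7a2 and Slc38a11 in fibroblast and mural cells, Slc3a2 and Slc43a3 in endothelium, Slc6a6 in podocytes, Slc38a1 in T lymphocytes and Slc7a11 in neutrophils. The leading class was chosen by these values, so the orders of levels in this account are descriptions without a test. Leading classes and overlaps were not counted over all genes, so whether these counts are unusual for carriers is not known.

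**Figure D1:**
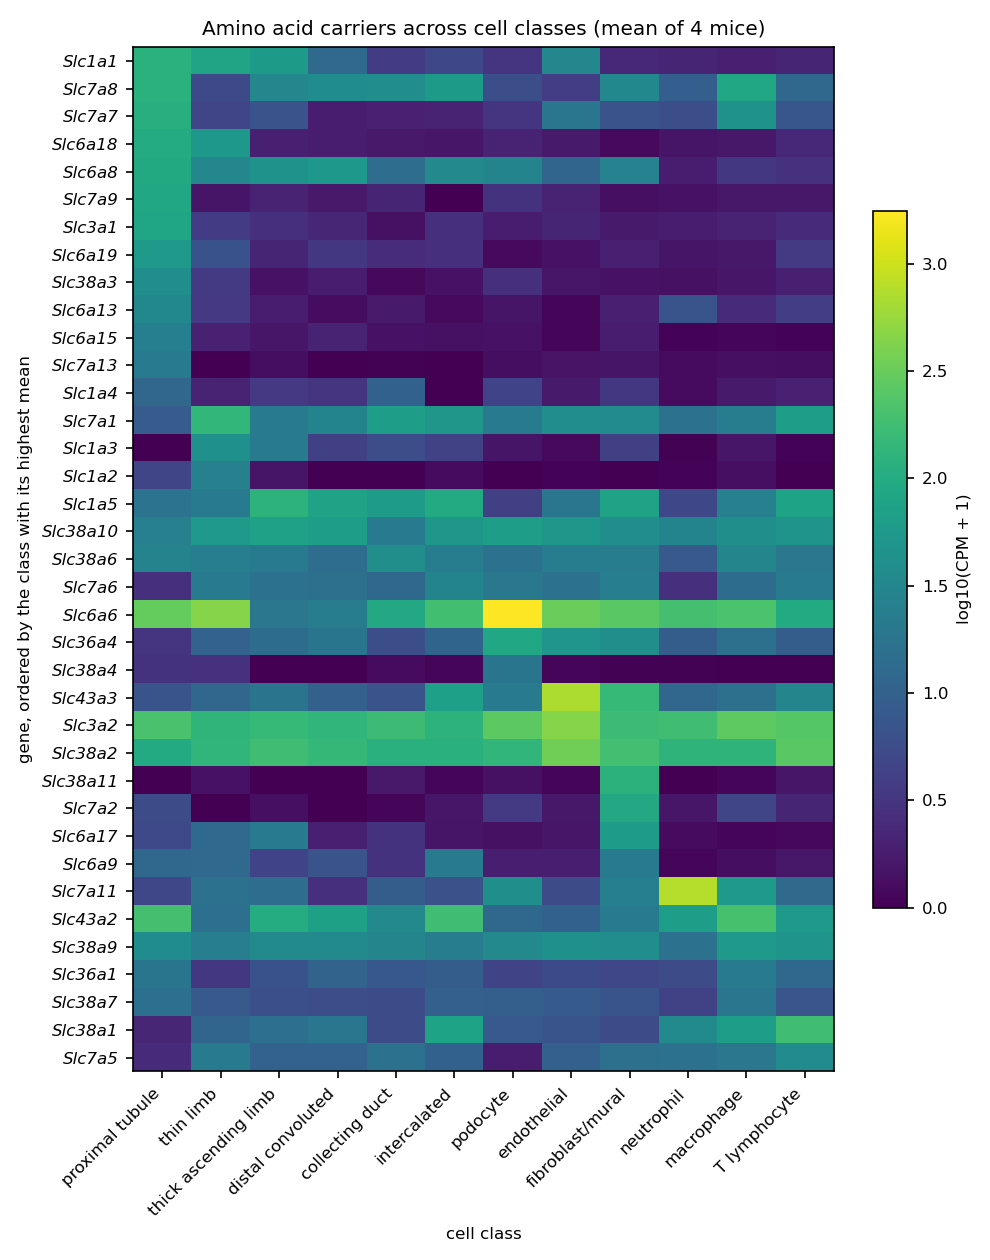
Mean level of the 37 carriers that reached 10 CPM, as log10(CPM + 1) over 4 mice (colour), in the 12 cell classes present in every mouse (columns); rows are ordered by the class with the highest mean. A block of 13 genes is brightest in the proximal tubule column, while Slc6a6 in podocytes (1767 CPM), Slc7a11 in neutrophils (762 CPM) and Slc43a3 in endothelium (712 CPM) are single bright cells of the map.

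The genes of the brush-border cystine system stood far higher in the proximal tubule than in any other of the 12 classes. Slc7a9, its light chain, was at 105, 89.7, 80.4 and 60.3 CPM in mice 1 to 4, and no other class averaged above 1.98 CPM, the podocyte-like value. Slc3a1, its heavy chain, was at 109, 90.7, 81.4 and 38.9 CPM, against 2.65 ± 3.17 CPM in the next class, the thin limb. T lymphocyte-like cells, which should lack both, gave 1.54 CPM of Slc3a1, so a level of 1 to 2 CPM in another class is not read as expression. The other light chain of Slc3a1, the aspartate and glutamate carrier Slc7a13, was uneven: 29.7, 7.72, 48.1 and 0.713 CPM. Without mouse 3 its mean fell from 21.6 to 12.7 CPM.

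Neutral amino acids enter through the B0-type carriers Slc6a19 (mutated in Hartnup disorder) and Slc6a18. Slc6a19 held 62.3, 52.1, 37.7 and 66.0 CPM in proximal tubule-like cells, a mean of 54.5 ± 12.7 CPM (SD, n = 4). Slc6a18 was at 109.5, 156, 95.7 and 30.7 CPM in the same cells. In thin limb-like cells Slc6a18 was at 140.2, 43.2, 18.9 and 6.45 CPM, so the 2 classes overlapped. Slc6a15, a branched-chain amino acid and proline carrier, averaged 24.1 ± 12.9 CPM in proximal tubule and at most 1.02 CPM in any other class of 4 mice. Slc1a1, the glutamate and cysteine carrier, was at 144, 142, 153 and 38.2 CPM in proximal tubule, 77.2 ± 39.5 CPM in the thin limb and 57.4 ± 34.3 CPM in the thick ascending limb.

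The thin limb-like class (228 cells) was the least stable in its making. It was named in 3 of 5 clusterings, and in the other 2, at a lower resolution and in double precision, no cluster earned the name. Its mean was 64.7% of the proximal level for Slc1a1, 53.2% for Slc6a18 and 33.8% for Slc6a8, but 3.32% for Slc3a1 (5 UMIs), 0.627% for Slc7a9 (1 UMI), with 0 UMIs of Slc7a13. The 12 convoluted-segment (S1/S2) markers of the proximal tubule summed to 103 CPM there (36.5 to 271 over mice) against 4531 CPM (3556 to 5368) in the proximal class. The 11 straight-segment (S3) markers summed to 145 CPM, with 3 at 0 UMIs, against 891 CPM (171 to 1532). The thin limb markers summed to 2967 CPM (2437 to 3663) in this class. Glomerular capsule markers summed to 3433 CPM there (1360 to 5147), against 741 CPM in the proximal class and 350 CPM in the thick limb. The capsule list was not counted against the name of a tubule segment. Neither the part of stray proximal transcripts nor that of capsule-like cells in the thin limb values was tested.

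Carriers of the basal side were shared with other classes. Slc7a7, which with Slc3a2 exports dibasic amino acids and is mutated in lysinuric protein intolerance, was at 199.7, 144, 47.8 and 49.2 CPM in proximal tubule and 44.7 ± 17.5 CPM in macrophages. Slc7a8, a neutral amino acid exchanger of the same kind, was at 131, 161, 37.4 and 147 CPM in proximal tubule, 88.7 ± 39.9 in macrophages and 57.2 ± 28.7 in intercalated cells. The efflux carrier Slc43a2 averaged 197 ± 102 CPM in macrophages, 193 ± 105 in proximal tubule and 176 ± 125 in intercalated cells. Macrophages stood above proximal tubule in 2 of 4 mice, and these differences were not tested. Of the 4 mice, mouse 3 had the lowest proximal value for all 3 genes, with Slc43a2 at 38.7 CPM against 215 to 272 CPM. Slc38a3, the glutamine carrier, was at 102, 32.8, 1.53 and 17.1 CPM, so its mean of 38.5 fell to 17.1 CPM without mouse 1.

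**Figure D2:**
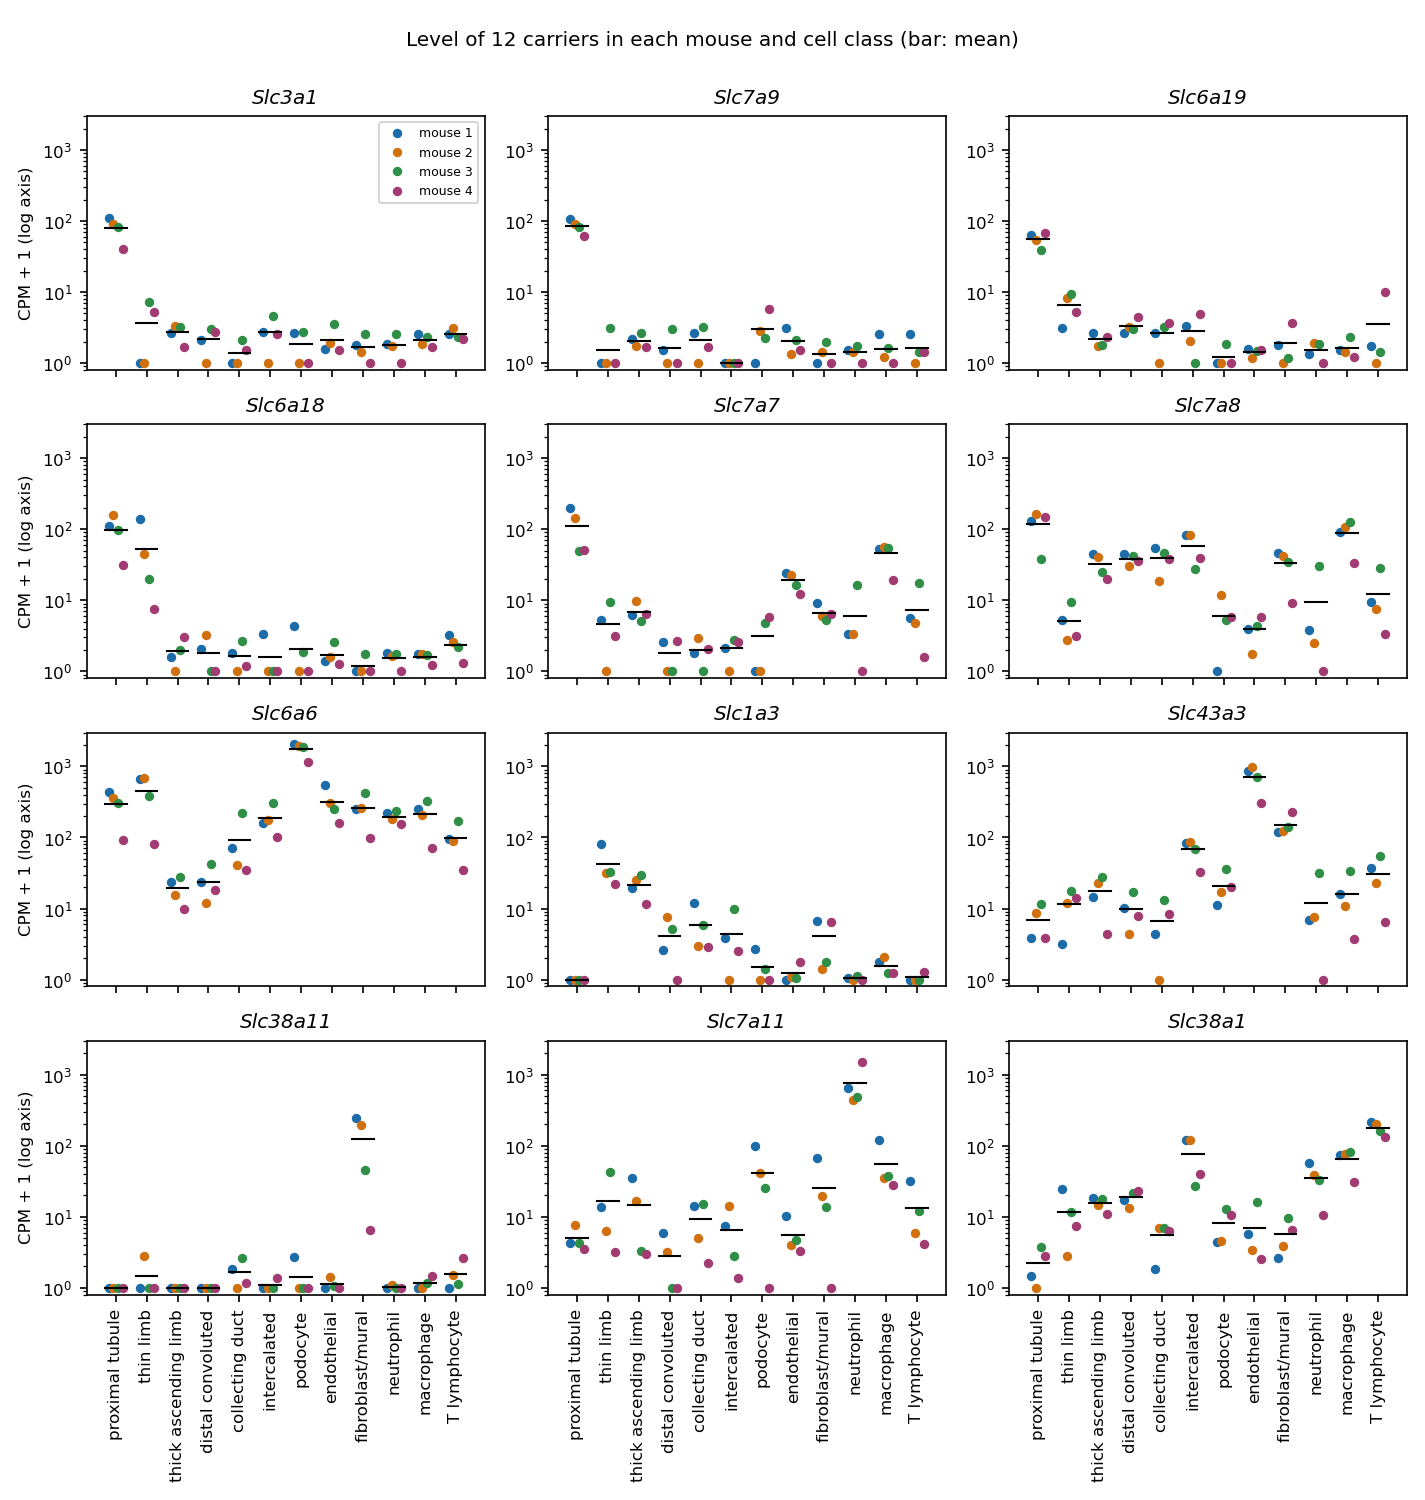
Level of 12 carriers in each of 4 mice (points, CPM + 1, log axis) across 12 cell classes; bars are means. Slc3a1, Slc7a9 and Slc6a19 stand highest in the proximal tubule in every mouse, Slc6a18 is also high in the thin limb, Slc7a7 and Slc7a8 have a second peak in macrophages, and Slc38a11 spans 5.43 to 247 CPM within the fibroblast and mural class.

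The tested contrast of proximal tubule-like cells with those of the thick ascending limb asked which carriers separate the reabsorbing segment from a segment not known for amino acid uptake. Called means an adjusted p under 0.05 in edgeR's quasi-likelihood test with the mouse as a block, adjusted (Benjamini-Hochberg) over all genes tested. The SE beside an edgeR log2 fold change is its absolute value over the square root of its F statistic, not a separately fitted SE. Of 30 carriers that passed the filter on low counts, 15 were higher and 11 lower in proximal tubule. Of all 11436 genes tested, 41.3% were called (19.9% higher, 21.4% lower). The median log2 fold change was 0.78 over the carriers and -0.02 over all genes. The 31 carriers that did not pass the filter have no test. Here and in the comparisons below, a gene that passed through 1 high class alone was bound to differ.

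Of 7 apical neutral and imino acid carriers, 5 were tested and 4 were higher in proximal tubule: Slc6a18 by 6.82 on the log2 scale (SE 0.49, adjusted p = 2e-06), Slc6a19 by 5.33 (SE 0.26, adjusted p = 2.08e-07), Slc6a15 by 5.29 and the proton-coupled Slc36a1 by 1.42. The fifth, the proton-family member Slc36a4, was lower (log2 fold change -2.63). Of 4 cystine, dibasic and acidic carriers the 3 tested were higher: Slc7a9 by 6.05 (SE 0.27, adjusted p = 1.62e-07), Slc3a1 by 5.40 (SE 0.26, adjusted p = 1.85e-07) and Slc1a1 by 0.95 (SE 0.25, adjusted p = 0.0114). Among 3 tested osmolyte and creatine carriers all were higher: the taurine and GABA carrier Slc6a13 by 5.16, the taurine carrier Slc6a6 by 3.86 and the creatine carrier Slc6a8 by 0.94. In the 4 mice Slc6a6 was at 439.5, 362, 301 and 91.0 CPM in proximal tubule and 22.6, 14.6, 27.0 and 8.72 CPM in the thick limb, without overlap. Slc7a7 (4.05), Slc7a8 (1.65) and the glycine carrier Slc6a9 (1.57) were higher too, as were Slc1a4 (2.11) and Slc38a7 (1.05), these last in 3 of 4 mice.

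The 11 carriers lower in proximal tubule came from several role groups. Slc1a3, a glutamate carrier best known from glia, had 0 UMIs in proximal tubule and 339 in the thick limb, at least 71.7-fold lower in proximal tubule (floor of 3 counts over the class). Its thick limb levels were 18.3, 24.5, 28.2 and 10.7 CPM. The glutamine carriers Slc38a1 (-3.34) and Slc1a5 (-3.20, SE 0.34, adjusted p = 2.98e-05), the light chains Slc7a6 (-3.12) and Slc7a5 (-2.55), Slc6a17 (-2.24), Slc38a10 (-1.59), Slc43a3 (-1.55), the cationic carrier Slc7a1 (-1.55) and Slc38a2 (-1.07) followed. Slc1a5 was at 31.6, 17.4, 10.4 and 6.06 CPM in proximal tubule and 127, 112, 193 and 69.8 CPM in the thick limb, again without overlap. The heavy chain Slc3a2 had a log2 fold change of 0.34 (SE 0.28, adjusted p = 0.366), and Slc43a2, Slc38a6 and Slc38a9 were also not called.

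Some of these calls depended on a library. Slc1a1 was not called without mouse 1 (adjusted p = 0.0818) or mouse 2 (0.0823). Slc1a4 was also lost without either, Slc36a1 without mouse 1, and Slc38a7 without mouse 1, 2 or 4. Without mouse 2 Slc1a4 was at 1.48, and without mouse 3 Slc7a6 was at -4.11 and Slc36a4 at -3.34 on the log2 scale. Without the mouse block Slc1a1, Slc1a4, Slc6a9, Slc7a1, Slc38a2, Slc38a7 and Slc43a3 were not called (adjusted p from 0.071 to 0.188). Slc43a3 was also lost when cells with the highest doublet scores were removed (log2 fold change -0.38, adjusted p = 0.435), where Slc6a6 was at 4.55 and Slc6a13 at 5.93. Thinning every cell to 1000 UMIs gave 6.17 for Slc6a18, 5.19 for Slc7a9, 4.19 for Slc3a1 and 3.11 for Slc7a7.

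**Figure D3:**
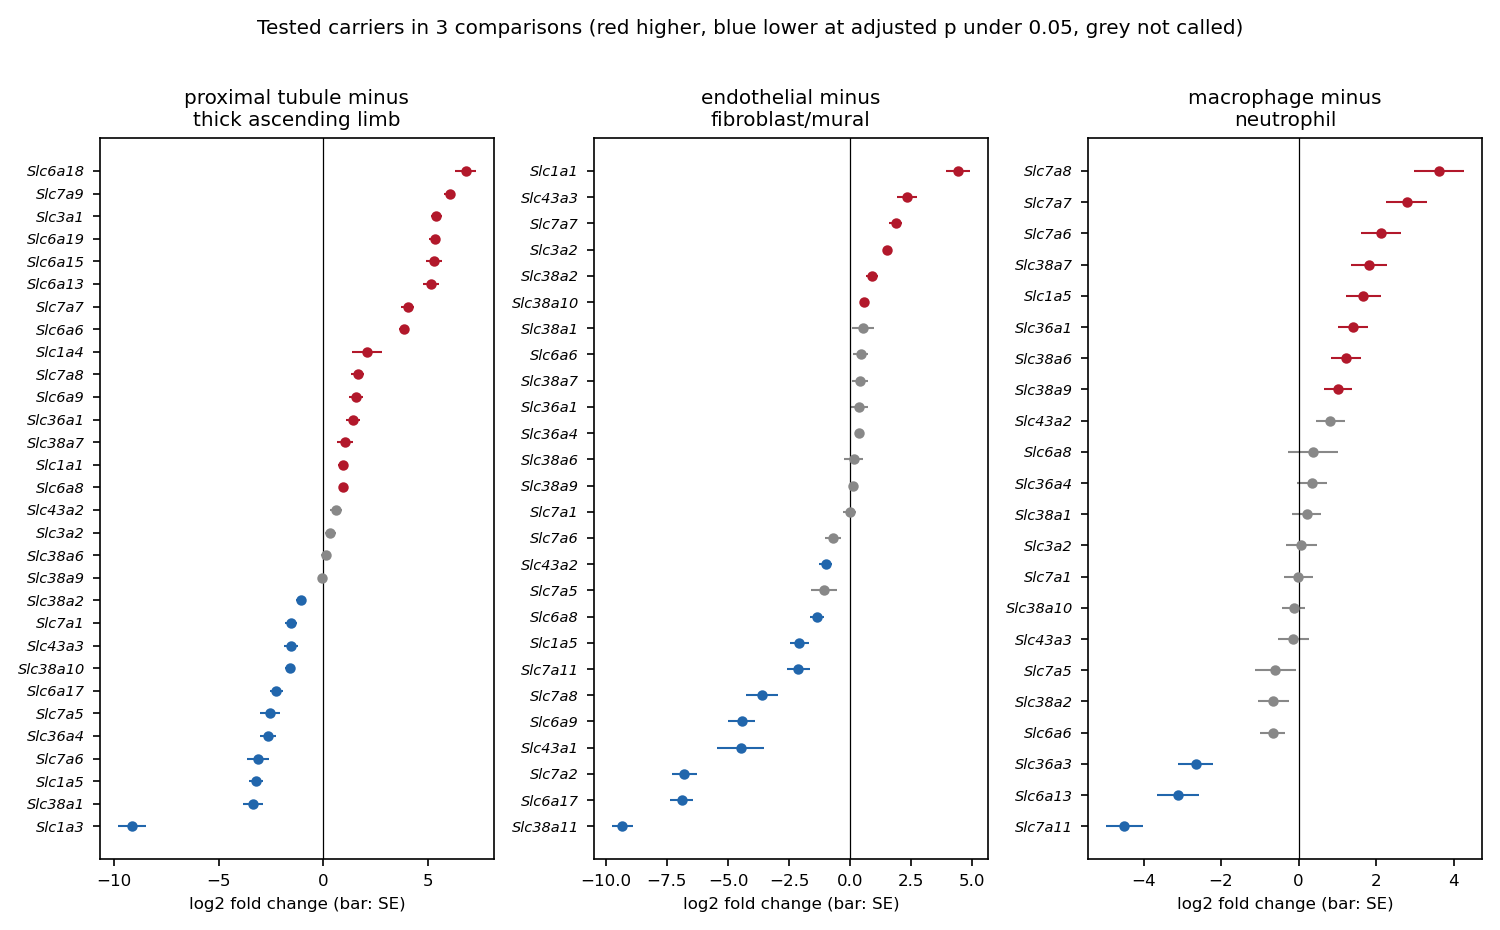
Log2 fold change (point) and SE derived from the F statistic (bar) of every tested carrier in 3 comparisons of cell classes. Red is for higher, blue for lower at adjusted p under 0.05 and grey for not called. Slc6a18, Slc7a9 and Slc3a1 lead in proximal tubule, Slc38a11 lies farthest toward fibroblast and mural cells, and Slc7a11 lies farthest toward neutrophils; the point of Slc1a3 is a fitted value against a class with 0 UMIs.

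Lists of genes around the carriers were counted in the same contrast, where 41.3% of all genes were called. Of 13 tested partners and other amino acid or peptide carriers, 9 were higher and 2 lower in proximal tubule (median log2 fold change 1.95). They included the scaffold Pdzk1 (6.61), the imino acid carriers Slc6a20b (5.46) and Slc6a20a (5.34), and collectrin Cltrn (3.93), which carries Slc6a19 to the brush border. Of 30 tested enzymes of amino acid metabolism, 20 were higher and 6 lower (median 2.17). Prodh2, of hydroxyproline breakdown, was higher by 7.73, Gldc of glycine cleavage by 7.47, Ddc by 6.79 and the lysine enzyme Aass by 6.56. One of the enzymes, Gatm, also served as a naming marker of the proximal class. Of 11 genes of the ATF4 amino acid response, 0 were higher and 3 lower, among them Nupr1 (-2.89) and Ddit4 (-1.39). Of 16 genes of amino acid sensing at mTORC1, 6 were higher and 1 lower, with Mtor at 1.62 (SE 0.23, adjusted p = 0.000222). The calls of the ATF4 and mTORC1 lists lay near or under the share over all genes.

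Within the proximal tubule no sub-cluster earned the S3 name, so cells were split by marker UMIs: more S3 than S1/S2 marker UMIs, or the reverse. These are ranges of a score and not cell types. The S3 range held 30, 12, 84 and 4 cells in mice 1 to 4 against 318, 152, 590 and 1083 in the other range, and 73, 37, 115 and 311 cells lay within 2 UMIs of the cut. Only mice 1 and 3 had 20 cells in each, so the test rests on 2 mice. Their S3 ranges were unlike. S3 markers summed to 4142.5 CPM in mouse 1 and 2573 CPM in mouse 3, and glomerular capsule markers to 422 and 3960.5 CPM. In the other range the capsule markers summed to 360 and 1779 CPM. The part of this in the results was not tested. Among the tested carriers the largest fitted difference was that of Slc6a18, known from the late proximal tubule, at 495 and 488 CPM in the S3 range against 74.7 and 43.6 CPM, a log2 fold change of 2.84 (SE 0.82, adjusted p = 0.05002, just above the threshold). None of 27 tested carriers was called by edgeR, where 0.998% of all 9721 genes were called (0.37% higher, 0.628% lower). At an unadjusted p under 0.05 there were 4, and DESeq2 called 1, Slc6a18 (adjusted p = 0.00254). With mice of 10 or more cells per range, an alternative chosen after seeing the data that adds mouse 2, Slc6a18 was called (2.62, adjusted p = 0.0304), as it was with a 20% limit on mitochondrial UMIs (2.84, adjusted p = 0.0175) and with the carriers among the clustering genes (2.85, adjusted p = 0.0446).

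Slc1a1 was at 343 and 424 CPM in the S3 range against 127 and 118 CPM (log2 fold change 1.38, SE 0.77, adjusted p = 0.411). Slc7a13, known from the S3 segment in mice, went both ways: 259 against 8.88 CPM in mouse 1 and 34.4 against 49.95 CPM in mouse 3. Slc7a12, not tested, had 9 UMIs in the S3 range, all from 6.67% of the 30 cells of mouse 1, and 0 in the other. Pooled over mice, the fold against a floor of 3 counts was 26.2. It rests on these few cells and is not a bound over mice. On the opposite side Slc7a7 had a log2 fold change of -1.77 (SE 0.72, adjusted p = 0.214) and Slc6a19 of -0.82 (SE 0.71, adjusted p = 0.623). Of 30 tested amino acid enzymes 5 were lower in the S3 range and 0 higher, including Asl (-3.06) and Psat1 (-2.78), where 0.998% of all genes were called. The enzyme list also holds Gatm, an S1/S2 marker used for the split, so a lower Gatm there was built in. Prodh2 had no UMI in the S3 range and 40.8 ± 3.55 CPM in the other (n = 2 mice).

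Havcr1 encodes KIM-1, a membrane protein known to appear on injured proximal tubule cells. Proximal cells of at least 1000 UMIs were split into 401 with a Havcr1 UMI (53, 34, 259 and 55 per mouse) and the rest. Slc6a18 was higher in the positive range in every mouse, at 146, 197, 161 and 131 CPM against 97.3, 139.8, 25.8 and 19.5 CPM, a log2 fold change of 1.35 (SE 0.27, adjusted p = 0.00731). The ratio was widest in mice 3 and 4. Slc38a2, the system A carrier of small neutral amino acids, was at 130.3, 127, 183 and 95.9 CPM against 60.4, 90.3, 116 and 45.4 CPM (0.66, SE 0.17, adjusted p = 0.0319). Slc7a7 was lower, at 113, 106, 31.6 and 26.1 CPM against 235, 166, 66.7 and 53.0 CPM (-1.10, SE 0.18, adjusted p = 0.00123). For all 3 the difference had 1 sign in 4 of 4 mice while the ranges overlapped between mice.

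Thus 3 of 23 tested carriers were called, 2 higher and 1 lower, where 3.81% of 8913 genes were called (1.07% higher, 2.75% lower). The cystine genes Slc3a1 (-0.21, SE 0.18, adjusted p = 0.572) and Slc7a9 (-0.39, SE 0.19, adjusted p = 0.253) and the neutral carrier Slc6a19 (0.14, SE 0.21, adjusted p = 0.762) were not called. Among the enzymes 10 of 29 were lower and 0 higher (median -0.56), with Gldc at -1.32, Asl at -1.14 and Psat1 at -1.10, and of the partners Pdzk1 was lower (-0.66, adjusted p = 0.0376). Of 8 tested ATF4 genes Atf5 was higher (1.68, adjusted p = 0.0367, in 3 of 4 mice), and of 15 mTORC1 sensing genes 0 were called.

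The positive cells differed in other ways. Their median depth was 7653, 8593, 6101 and 3961 UMIs against 4112, 4638, 3456 and 2318, and 168 of the 401 had exactly 1 Havcr1 UMI. The S3 markers summed to 1945, 1452, 818 and 118 CPM in positive cells and 1381, 1128, 423 and 179.5 CPM in negative ones. The glomerular capsule markers summed to 574.5, 541.5, 2388 and 244 CPM in positive cells and 281.8, 399.2, 1681 and 111.6 CPM in negative ones, higher in 4 of 4 mice. The injured tubule markers, a list that holds Havcr1 itself, summed to 6926, 4877, 6425 and 11198 CPM against 4297, 3048, 10687 and 5257 CPM, so they were lower in the positive cells of mouse 3. The part of these markers in the results was not tested. With every cell thinned to 1000 UMIs, 12 carriers could be tested and 0 were called, with Slc6a18 at 1.06 (adjusted p = 0.0749), Slc7a7 at -1.12 (adjusted p = 0.112) and Slc38a2 at 0.92 (adjusted p = 0.0598). Without the mouse block 0 were called, with log2 fold changes of 1.15, -1.06 and 0.66 in the same order. Without mouse 1 the only call left was Slc6a18; Slc38a2 was lost without mouse 1, 2 or 4 and Slc7a7 without mouse 1 (adjusted p = 0.0720).

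**Figure D4:**
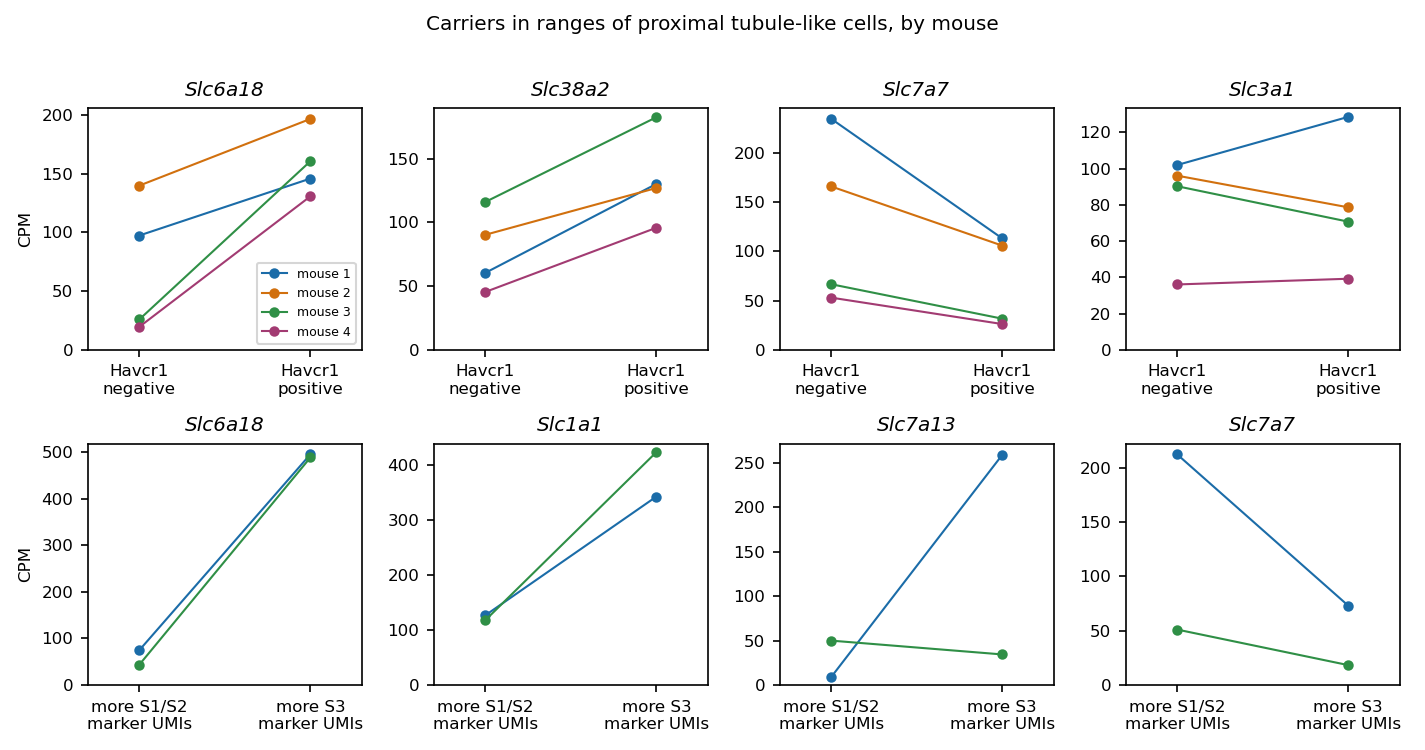
Level in CPM of carriers in ranges of proximal tubule-like cells, 1 line per mouse. The upper row compares Havcr1-negative with Havcr1-positive cells in 4 mice: Slc6a18 and Slc38a2 rise and Slc7a7 falls along every line, and Slc3a1 goes both ways. The lower row compares the S1/S2 with the S3 marker range in mice 1 and 3: Slc6a18 ends at 495 and 488 CPM, and Slc7a13 goes both ways.

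Sub-clusters of the proximal class held different sets of carriers, given as a description since clusters were formed on these cells (mice with under 20 cells are left out of these values). Sub-clusters s1 (405 cells, mostly of mouse 4) and s5 (206 cells of mice 1 and 2) were high in basal-side carriers, with Slc43a2 at 458 and 353 CPM, Slc7a8 at 295 and 207 CPM, and Slc7a13 at 0 and 6.17 CPM. Sub-clusters s2 (314 cells of mouse 3) and s9 (72 cells of mice 1 and 4) had Slc3a1 at 203 and 248 CPM and Slc7a13 at 163 and 174 CPM (in s9 from 25.5 to 219 over its mice), with Slc7a8 at 17.1 and 14.8 CPM. Nearly all cells of s2 came from mouse 3, so mouse and sub-cluster cannot be told apart there.

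Along the distal nephron the collecting duct and connecting tubule-like cells were set against the thick ascending limb, a comparison that shares its thick limb sums with the proximal one. Of 23 tested carriers, 2 were higher and 9 lower in the collecting duct, where 27.1% of 10941 genes were called (13.4% higher, 13.7% lower), and the carriers had a median of -0.72 against -0.01 over all genes. Slc6a6, which stores taurine as an osmolyte, was at 70.4, 39.8, 217 and 34.2 CPM against 22.6, 14.6, 27.0 and 8.72 CPM, higher by 1.89 (SE 0.29, adjusted p = 0.00225). Slc7a1, the arginine and lysine carrier, was at 77.9, 83.5, 64.3 and 27.4 CPM against 17.0, 18.4, 37.0 and 9.39 CPM, higher by 1.43 (SE 0.26, adjusted p = 0.00477). Slc6a6 was higher without overlap; the Slc7a1 value of mouse 4 lay within the thick limb range.

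The glutamate carrier Slc1a1 was at 0.838, 0, 9.80 and 0.523 CPM in the collecting duct and 42.9, 49.8, 107 and 29.5 CPM in the thick limb, a log2 fold change of -4.65 (SE 0.42, adjusted p = 0.000159). Without mouse 3 it was at -6.05, -3.66 at the lower resolution and -5.62 without the highest doublet scores. Slc6a17 (-3.31), Slc1a3 (-2.25), Slc38a1 (-1.84), Slc38a10 (-1.81), Slc43a2 (-1.81), Slc6a8 (-1.80), Slc1a5 (-1.25) and Slc38a2 (-0.93) were lower as well. At the lower resolution the collecting duct class held 1656 cells in place of 1004, its leading genes included Slc12a3 and Calb1 of the distal convoluted tubule, and no distal convoluted class was named. There Slc6a8 was at -0.74, Slc38a1 at -0.84 and Slc38a10 at -1.01. Slc38a2 was lost without mouse 1, 2 or 4, and without the mouse block Slc6a6, Slc7a1, Slc38a1, Slc38a2 and Slc43a2 were not called (adjusted p from 0.0565 to 0.379). Among the enzymes 1 of 20 was higher, Bcat1 of branched-chain transamination (7.02), and 9 were lower, with Shmt1 at -4.30. Of 9 partners 5 were lower, with the peptide carrier Slc15a2 at -2.86. Of ATF4 genes 1 of 9 was lower, and of mTORC1 genes 3 of 15 were higher and 1 lower. In this comparison 27.1% of all genes were called.

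Other tubule classes led single carriers. Slc1a5 averaged 126 ± 51.2 CPM in the thick limb and 96.8 ± 31.8 in intercalated cells, and was higher in the thick limb in 4 of 4 mice, though the classes overlapped between mice. Slc7a1 was at 189, 192, 118 and 58.0 CPM in the thin limb, above the collecting duct of the same mouse in 4 of 4 mice. The glutamate carriers Slc1a3 (80.7, 30.6, 31.6 and 21.5 CPM) and Slc1a2 (40.4, 52.2, 2.10 and 4.30 CPM) were highest in the thin limb, and the mean of Slc1a2 fell from 24.7 to 15.6 CPM without mouse 2. Slc7a6 (28.6 ± 11.5 CPM, intercalated) stood above its next class in 2 of 4 mice. Slc38a6 (39.4 ± 28.0, collecting duct) and Slc38a10 (70.8 ± 23.9, thick limb) did so in 3 of 4 mice each. All overlapped with the next class between mice, and these differences were not tested. Slc38a1 reached 75.7 ± 49.9 CPM in intercalated cells, the second class after T lymphocytes among those of 4 mice.

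Podocyte-like cells (600 in all) had the highest mean of the taurine carrier Slc6a6 among the 12 classes. Slc6a6 was at 2088, 1954, 1868 and 1157 CPM, against 449 ± 279.5 in the thin limb, the next class, and 18.2 CPM in the thick limb. It made up 68.4% of the carrier UMIs of podocytes. An unnamed cluster of 338 cells with leading genes Stc2, Sfrp5 and Wnt16, and with injury and glomerular capsule markers, also held much Slc6a6, 2061 CPM over its pooled cells (1220 to 2870 over mice). Slc36a4 (141, 112, 73.7 and 24.2 CPM) and the system A carrier Slc38a4 (17.3 ± 10.7 CPM) were highest in podocytes too; Slc36a4 overlapped with endothelium (48.6 ± 23.1) between mice but was higher in podocytes in 4 of 4 mice, and Slc38a4 averaged 2.02 CPM in the next class.

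**Figure D5:**
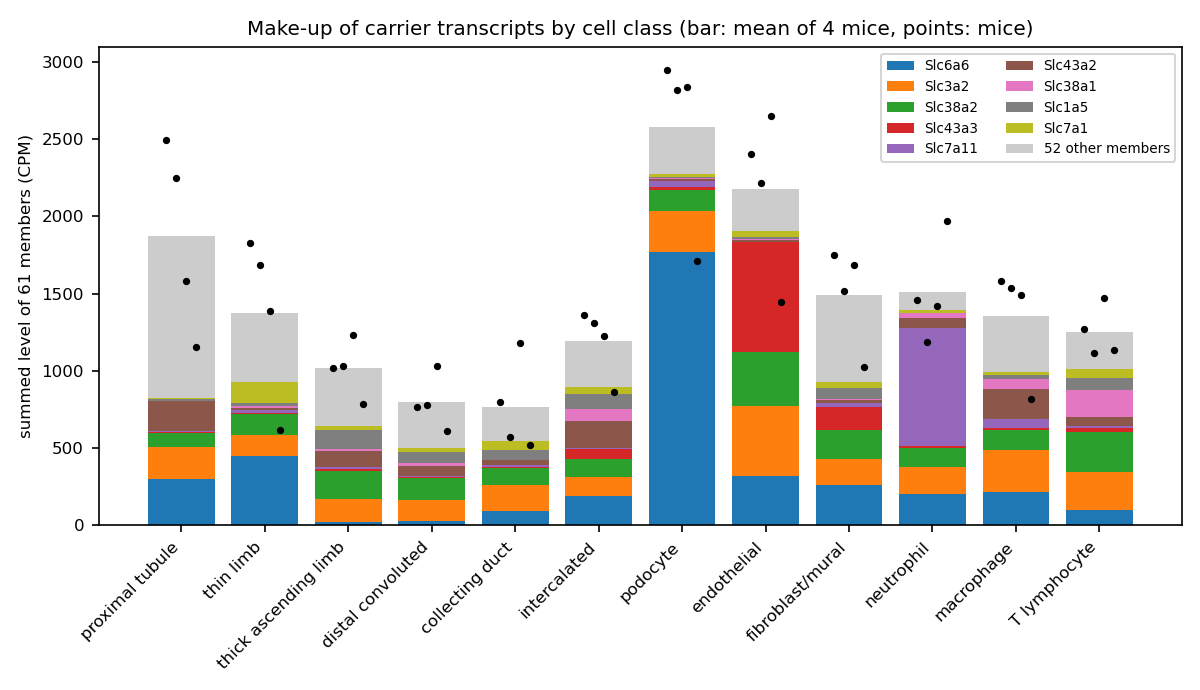
Summed level of the 61 carriers by cell class in CPM, as the mean of 4 mice (stacked bar, 9 carriers in colour and the other 52 in grey) with each mouse as a point. Podocytes (2582 CPM), endothelium (2179 CPM) and proximal tubule (1871 CPM) have the tallest bars; Slc6a6, Slc43a3 and Slc7a11 fill large shares of podocytes, endothelium and neutrophils, and the proximal tubule bar is mostly grey.

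The summed carrier level was 2582 ± 581 CPM in podocytes, 2179 ± 523 in endothelium, 1871 ± 616 in proximal tubule and 1508 ± 331 in neutrophils, down to 764 ± 299.8 in the collecting duct. UMIs were not scaled by transcript length, so shares of a sum describe UMIs and do not rank genes by expression. Proximal tubule spread its sum over 24 carriers of 10 CPM or more, against 11 to 21 in the other 11 classes of 4 mice. In endothelium Slc43a3 made up 32.7% of the sum and in neutrophils Slc7a11 made up 50.5%. The UMIs of the 5 light chains of Slc3a2 named above, with Slc7a10 added, were divided by those of Slc3a2. This ratio changed with the class: 0.107 ± 0.0250 in endothelium, 0.335 ± 0.110 in T lymphocytes, 1.15 ± 0.392 in proximal tubule and 1.83 to 31.4 over mice in neutrophils.

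Endothelial-like cells (8298) were compared with fibroblast and mural-like cells (1774). Slc43a3, which moves purine bases, was at 869.5, 970.5, 710.0 and 299.9 CPM in endothelium against 120.0, 121, 138 and 225 CPM, higher by 2.32 (SE 0.41, adjusted p = 0.00409) without overlap. The fibroblast cluster described below held Slc43a3 at a pooled level inside this endothelial range, while the larger mural cluster lay under it. The heavy chain Slc3a2 was at 369, 393, 660.2 and 378 CPM against 162, 140.2, 235 and 136 CPM, higher by 1.52 (SE 0.18, adjusted p = 0.00065), again without overlap. Slc1a1 (20.6, 32.5, 57.8 and 12.3 CPM against 0 to 4.90 CPM) was higher by 4.41 (SE 0.49, adjusted p = 0.000465), and by 6.603 without mouse 3. Slc7a7 (1.86), Slc38a2 (0.89) and Slc38a10 (0.55) were also higher. In all, 6 of 26 tested carriers were higher and 10 lower, where 33.1% of 12814 genes were called (16.4% higher, 16.7% lower), and the medians were 0.05 over the carriers and 0.05 over all genes. Most endothelial cells of mice 1 and 2 sat in cluster 2, those of mouse 3 in clusters 6, 21 and 22, and those of mouse 4 in cluster 3.

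Fibroblast and mural cells were set apart by Slc38a11, a little-studied member of the glutamine carrier family, at 247, 195, 43.8 and 5.43 CPM; the next class of 4 mice averaged 0.662 CPM. Its log2 fold change in endothelium was -9.33 (SE 0.43, adjusted p = 2.22e-05). Slc6a17, a neutral amino acid carrier known from neuronal vesicles, was at 85.7, 56.1, 93.5 and 5.43 CPM (-6.89, SE 0.46). The cationic carrier Slc7a2 was at 154, 128, 67.4 and 16.3 CPM (-6.79, SE 0.51). Mouse 4 was lowest for all 3. A gene that passed the low-count filter through the fibroblast and mural class alone was bound to differ, so these calls are read as descriptions. Slc43a1 (-4.48), Slc6a9 (-4.44), Slc7a8 (-3.60), Slc1a5 (-2.08), Slc6a8 (-1.35) and Slc43a2 (-1.001) were also lower in endothelium, and Slc7a11 was called (-2.12) though not in the same direction in every mouse.

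These stromal carriers were not in 1 kind of cell. The large mural cluster, led by Myh11, Rgs5, Ren1 and Notch3 (1532 cells of 3 mice), held Slc38a11 at 93.8, Slc6a17 at 92.8, Slc7a2 at 83.9 and Slc43a3 at 81.9 CPM over its pooled cells. The fibroblast cluster led by C7, Dcn and Pdgfra (213 cells of 3 mice) held Slc38a11 and Slc6a17 at 0.870 CPM each, but Slc7a2 at 82.6 and Slc43a3 at 676 CPM. In mouse 4, 88 of the 101 cells of the class came from that fibroblast cluster, and the part of this make-up in the low values of mouse 4 was not tested. Clusters were formed and chosen on these cells, so their differences have no test.

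Several calls of this comparison were sensitive to 1 mouse. Slc6a8 and Slc7a11 were lost without mouse 1 or 2, Slc38a2 without mouse 1, 3 or 4, Slc38a10 without mouse 1, 2 or 3, and Slc43a2 without mouse 2 or 4. Without mouse 3 Slc1a5 was at -2.67, Slc7a2 at -7.83 and Slc43a1 at -7.82, and without mouse 2 Slc6a9 was at -3.82, Slc7a8 at -2.93 and Slc38a11 at -10.31. Without the mouse block Slc7a11, Slc38a2, Slc38a10 and Slc43a2 were not called (adjusted p from 0.0764 to 0.284). Among other genes 3 of 22 enzymes were higher and 7 lower, with the arginine-making Ass1 at 2.42 and Oat at -2.62. Of 17 mTORC1 genes 3 were higher and 2 lower, with the arginine sensor Castor1 at 3.41. Of 11 ATF4 genes 2 were higher and 2 lower, and of 9 partners 1 was lower. In this comparison 33.1% of all genes were called.

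Neutrophil-like cells (6001) were marked by Slc7a11, the exchanger that brings in cystine for glutamate. It was at 640.4, 433, 485 and 1489 CPM, against 121, 34.6, 36.6 and 26.6 CPM in macrophage and monocyte-like cells. The value of mouse 4 rests on 46 neutrophil-like cells. The log2 fold change of macrophages over neutrophils was -4.50 (SE 0.48, adjusted p = 0.000313), without overlap. A cluster of 1332 cells with neutrophil markers but few UMIs, left unnamed, held Slc7a11 at 705 CPM (561 to 1060 over 3 mice). The proton-family gene Slc36a3 was at 3.05, 3.82, 4.23 and 9.61 CPM in neutrophils and 0.742 to 1.58 CPM in macrophages (-2.65, SE 0.45, adjusted p = 0.00211). Slc6a13 was called as well (-3.12), but had no UMI in the neutrophils of mouse 4.

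Macrophages were higher in 8 carriers. The basal-side exchangers of the tubule led: Slc7a8 was at 89.1, 108, 125 and 33.0 CPM against 2.85, 1.49, 29.2 and 0 CPM (3.62, SE 0.65, adjusted p = 0.00272), and Slc7a7 at 52.1, 54.7, 53.3 and 18.5 CPM against 2.39, 2.33, 15.7 and 0 CPM (2.79, SE 0.53, adjusted p = 0.00339). In both genes the neutrophils of mouse 3 were the highest of the 4 mice. Slc7a6 (2.13), Slc38a7 (1.82), Slc1a5 (1.67), Slc36a1 (1.40), Slc38a6 (1.23) and the lysosomal arginine sensor Slc38a9 (1.02) followed. In all 11 of 22 tested carriers were called, where 43.6% of 13199 genes were (23.9% higher, 19.7% lower in macrophages), and the medians were 0.27 over the carriers and 0.04 over all genes.

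These calls leaned on single mice. Leaving out mouse 1 left 5 calls, mouse 2 left 6, and mouse 3 gave 15. Slc1a5, Slc36a1, Slc38a6, Slc38a7 and Slc38a9 were lost without mouse 1 or without mouse 2, Slc38a9 also without mouse 4, and Slc7a6 without mouse 1. Without mouse 3 Slc7a7 was at 3.67, Slc7a8 at 4.73, Slc7a6 at 2.79 and Slc38a7 at 2.45, and without mouse 2 Slc7a8 was at 2.85. Without the mouse block Slc36a1, Slc38a6, Slc38a7 and Slc38a9 were not called (adjusted p from 0.0708 to 0.131), and Slc7a8 was at 2.53 and Slc7a7 at 2.20. Mice differed in which clusters made up these classes: macrophages of mice 1 and 2 were mostly in cluster 9, of mouse 3 in 8 and 13, and of mouse 4 in 5, while neutrophils of mice 1 and 2 were in 0 and 4, of mouse 3 in 16, and of mouse 4 in 0.

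Of 10 tested genes of the ATF4 response, 3 were higher and 3 lower in macrophages, where 43.6% of all genes were called. Chac1, which breaks down glutathione, had a log2 fold change of -3.87 (31.8 ± 30.9 CPM in neutrophils), the asparagine enzyme Asns of -3.01 and the stress sensor Sesn2 of -2.62, while Ddit4 was higher by 1.97. Of 22 tested enzymes 4 were higher and 2 lower, with arginase Arg2 at 670.2 ± 322 CPM in neutrophils against 63.9 ± 66.3 CPM (-4.44, SE 0.47, adjusted p = 0.000313) and Gatm at 3.64. Of 10 partners 2 were higher, among them the aromatic amino acid carrier Slc16a10 (1.59), and of 16 mTORC1 genes 2 were higher and 1 lower.

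T lymphocyte-like cells (4827) had the highest level of Slc38a1, a glutamine carrier, among the 12 classes. It was at 214, 201, 159 and 130.1 CPM, above macrophages at 71.9, 76.0, 79.6 and 30.04 CPM in every mouse and without overlap (1.26, SE 0.20, adjusted p = 0.00557). Dendritic, natural killer and B lymphocyte-like cells, present in 1 or 2 mice, had means of 107, 143 and 122 CPM. Slc1a5, the other glutamine carrier of lymphocytes, was at 87.3, 94.8, 77.1 and 44.5 CPM against 26.4, 31.8, 22.4 and 19.6 CPM (1.31, SE 0.16, adjusted p = 0.00269). Slc7a1 (1.39) was also higher. Slc43a3 was at 36.01, 21.9, 54.1 and 5.38 CPM against 14.9, 9.75, 32.5 and 2.71 CPM. It was called higher (0.77, SE 0.19, adjusted p = 0.022), but its sign turned with a 20% mitochondrial limit (-0.65), with thinning (-0.03) and at the lower resolution (-1.31), so no direction is read from it. The large neutral amino acid carrier Slc7a5 had its highest mean in T lymphocytes (36.2 ± 28.2 CPM, 22.4 without mouse 3) but was not called against macrophages (0.66, SE 0.24, adjusted p = 0.0754).

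Lower in T lymphocytes were Slc7a8 (-3.51, SE 0.35, adjusted p = 0.00139), Slc7a7 (-3.42, SE 0.52, adjusted p = 0.00489), Slc7a11 (-2.59), Slc43a2 (-1.95), Slc38a7 (-1.74), Slc6a6 (-1.41), Slc36a4 (-1.23), Slc36a1 (-1.18) and Slc38a6 (-0.95). So 4 of 19 tested carriers were higher and 9 lower, where 35.3% of 12836 genes were called (16.7% higher, 18.6% lower), and the medians were -0.45 and 0.03. The comparison shares its macrophage sums with the one against neutrophils. Most T lymphocyte-like cells of mice 1, 2 and 3 sat in cluster 15 (253, 334 and 552 cells). Those of mouse 4 were mostly in clusters 1 and 12 (2057 and 1271 cells). Slc43a3 was lost without mouse 1, 2 or 4, and without the mouse block Slc6a6, Slc7a1, Slc36a1, Slc36a4, Slc38a6 and Slc43a3 were not called (adjusted p from 0.078 to 0.634). Slc7a7 was at -4.36 without mouse 3, at -4.06 at the lower resolution and at -4.27 with thinning.

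Among the other genes 3 of 22 enzymes were higher and 6 lower in T lymphocytes, with the serine-making Phgdh at 3.98 and Gatm at -3.64. Of 8 ATF4 genes 5 were lower, with Nupr1 at -3.02, and of 17 mTORC1 genes 2 were higher and 5 lower, with Sesn3 at 3.20 and Tfeb at -1.39. Of 9 partners 3 were lower, with Slc16a10 at -1.90. In this comparison 35.3% of all genes were called.

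The remaining 24 carriers stayed under 10 CPM in every class. Of these, 9 had a highest mean between 1 and 10 CPM: Slc43a1 (7.43 ± 6.28 CPM in fibroblast and mural cells), Slc36a3, Slc7a4, Slc7a12, Slc6a12, Slc6a14, Slc6a4, Slc7a3 and Slc7a14. Slc6a14, a broad carrier of neutral and cationic amino acids, had 48 UMIs in the thick limb and 0 in proximal tubule, at least 10.2-fold lower there. The betaine carrier Slc6a12, known from the medulla, averaged 3.11 ± 1.35 CPM in the thin limb, from 6 UMIs. Another 15 stayed under 1 CPM, among them the neuronal monoamine and glycine carriers Slc6a2, Slc6a3 and Slc6a5. The imino and glycine carrier Slc36a2, known from the kidney brush border, had 0 UMIs in proximal tubule, which allows up to 0.303 CPM (3 counts over the class).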

How the data were processed

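The deposited files hold, for each mouse, raw UMI counts per gene and cell barcode that the authors made with Cell Ranger 9.0.1, per the file headers; Seurat 4.1.1 is named in the submitters' processing notes without a role. Genome build, annotation and strand setting are not given in the sources used here. Every barcode in the files had at least 500 UMIs. Cells with at least 300 genes and at most 50% mitochondrial UMIs were kept. Scrublet marked 109 doublets, 107 of them in mouse 2 (1.2079%), and did not work in mice 1, 3 and 4. Cells of all mice were clustered with scanpy 1.11.5 (2000 variable genes without the carriers, 30 components, 15 neighbours, Leiden resolution 1, single precision). A cluster took the name of the list with the most passing markers, and at least 3. A marker passed in 20% or more of the cells at 2-fold or more of the level in other cells. Clusters with markers or leading genes of an unrelated type, high doublet scores, or few UMIs without a leading marker stayed unnamed. So did those best matched by the injury or capsule list. Barcodes shared between libraries were kept. Libraries differed by far more than counting noise in every pair (chi-square of at least 162.3 for each degree of freedom), so none was treated as a repeat.

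Raw counts were summed per mouse and class (20 or more cells) and tested with edgeR 4.0.16 (TMM, filterByExpr, quasi-likelihood, mouse as block, because both classes come from the same animal). The test was checked on simulated data. DESeq2 1.42.0, thinning to 1000 UMIs, other filters and resolutions, clustering in double precision (chosen after seeing the data), no block and each mouse left out were alternatives. In each comparison the text names up to 10 called carriers per direction with the largest log2 fold change among those of 1 sign in every mouse, and every carrier with a mean of 10 CPM in a class; others named are singled out from their values. Floors of 3 counts cover counting error only. The carriers, role groups, marker lists and comparisons were chosen with earlier results of these data known. Promoters came from a RefSeq table. Values of 1 carrier and 1 enzyme are not reported here.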

Additional observations from a re-analysis of the deposited data

Results flagged for a closer look

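In groups of 4 mice, 1 mouse was singled out when its gap to the nearest other mouse took up more of the whole range than Dixon's 95% limit. Of 117 groups examined 10 met this, and chance gives about 1 in 20. Slc1a1 in proximal tubule-like cells was at 38.16 CPM in mouse 4 against 141.8 to 152.9 CPM in the others. Slc1a3 in thin limb-like cells was at 80.73 CPM in mouse 1 against 21.49 to 31.55 CPM. Slc3a2 in endothelial-like cells was at 660.2 CPM in mouse 3 against 369.2 to 393.3 CPM. The other 7 are log2 ratios of 2 classes or ranges within a mouse. For proximal tubule over thick ascending limb, Slc38a2 was at -1.97 in mouse 4 against -0.67 to -0.58. For Havcr1-positive over Havcr1-negative cells, Slc7a7 was at -0.64 in mouse 2 against -1.05 to -0.99. For collecting duct over thick ascending limb, mouse 2 had Slc6a8 at -3.42 against -1.42 to -1.14 and Slc38a10 at -2.88 against -1.48 to -1.23, from 29 collecting duct-like cells. For endothelium over fibroblast and mural cells, Slc3a2 was at 1.19 in mouse 1 against 1.47 to 1.49, and Slc6a17 at -2.36 in mouse 4 against -5.76 to -5.33. For macrophages over neutrophils, Slc7a7 was at 1.71 in mouse 3 against 3.97 to 4.29.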

How the results depend on the processing

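Of 80 calls of a carrier in a comparison, 46 held under every alternative tried in which the carrier could be tested, 34 were lost or turned under at least 1, and 1 changed sign. That one was Slc43a3 in T lymphocytes against macrophages, at -0.654 with a 20% mitochondrial limit, -0.032 with thinning and -1.313 at Leiden resolution 0.5, against 0.774. Thinning every cell to 1000 UMIs lowered the number of called carriers to 11 for proximal tubule against thick limb, 0 for the Havcr1 ranges, 6 for collecting duct against thick limb, 8 for endothelium against fibroblast and mural cells and 7 for macrophages against neutrophils; fewer carriers passed the filter there (16, 12, 10, 17 and 17). Classes were paired by mouse, and without the replicate block 29 of 80 calls were lost; the counts fell to 0 for the Havcr1 ranges, 6 for collecting duct, 7 for macrophages against neutrophils and 7 for T lymphocytes, and were 19 and 12 for proximal tubule and endothelium. The losses are named beside the results, and the block changed no other call. The S3 range gave 1 call in place of 0 under DESeq2, under a 20% mitochondrial limit, with the carriers among the variable genes, and with mice of 10 or more cells. Leaving out 1 mouse at a time gave 1 to 3 called carriers for the Havcr1 ranges, 5 to 15 for macrophages against neutrophils, 22 to 29 for proximal tubule, 10 to 13 for collecting duct, 12 to 16 for endothelium and 12 to 14 for T lymphocytes, losing 42 of 318 calls. It was not run for the S3 range, where 1 mouse would remain. DESeq2 lost 1 of 80 calls. Clustering in double precision, an alternative chosen after seeing the data, kept 80 of 80 calls but named no thin limb-like class, so the values of that class depend on the clustering. The cause of these changes was not tested. The number of carriers reaching 10 CPM was 36 to 38 against 37. Mouse 4, with a median of 2077 UMIs per cell, limits what can be seen of carriers under 10 CPM.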
